A study of Mus musculus with 6 samples.

Results

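The glycolysis and hypoxia genes described here are 39 genes chosen by name from the 34745 genes of the deposited table: the glucose transporters, the enzymes from hexokinase to lactate dehydrogenase, the enzymes and carriers that decide the fate of pyruvate and lactate, and the hypoxia-inducible factor (HIF) subunits with their regulators and further target genes. All 39 symbols were found in the table, and 37 of them had enough counts to be tested. The libraries came from NOR-10 cells, a fibroblast line from mouse skeletal muscle, in 2 groups of 3 replicates. The D-gal group was kept in 20 mg/mL D-galactose (D-gal) for 3 days, a treatment used to induce senescence, and the control group received the same amount of PBS. Both groups are the same unmodified line in culture, so no animal, genotype or transgene differs between them. The question addressed is whether an excess of galactose moves the expression of glucose transport, glycolysis or HIF target genes.

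Glycolysis splits glucose into pyruvate. Hexokinase traps the sugar in the cell, phosphofructokinase sets the pace of the pathway, and pyruvate kinase closes it. Pyruvate is then either reduced to lactate by lactate dehydrogenase or oxidised in mitochondria, and the pyruvate dehydrogenase kinases hold back the second route. Galactose joins the same pathway after its conversion to glucose phosphate. The HIF transcription factors pair an alpha subunit, encoded by Hif1a or Epas1, with a constant partner. With oxygen present, prolyl hydroxylases (Egln genes) mark the alpha subunit, and the product of Vhl sends it to degradation, so HIF activity is set mainly at the protein and cannot be read from the mRNA alone. HIF binds a short core, ACGTG or GCGTG, and most glycolytic genes are among its textbook targets.

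The libraries held 16876087 to 20830349 counts in the control group and 13759108 to 15157064 in the D-gal group, so the groups did not overlap in depth. Of 12 fibroblast markers, 10 had enough counts to be tested, Lum and Fap were at or near 0, and the summed level was 7537 to 7700 CPM (counts scaled to the library total) in control and 5073 to 5367 CPM in D-gal libraries. The myogenic markers summed to 3.84 to 5.99 CPM, with Pax7, Myf5 and Myod1 at 0 in every library, the endothelial markers to 3.13 to 5.34 CPM and the adipocyte markers to 0.948 to 2.04 CPM. The macrophage and leukocyte markers summed to 49.3 CPM in control replicate 1 and to 8.72 to 12.2 CPM in the other 5 libraries, mostly through Lyz2. In bulk samples of this kind, a lower level from fewer cells of a type and a lower level from less RNA per cell cannot be told apart.

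To show where HIF could bind next to the genes that the results turn on, the 250 bases upstream of the RefSeq transcription start (GRCm38.p6) were searched for the core ACGTG or GCGTG on both strands. Capitals mark the matches, which read CACGT or CACGC where the core lies on the other strand, and a palindromic CACGTG counts on each strand. The windows shown belong to Adm (chr7:110627407-110627656, plus strand), the listed HIF target with the largest rise, Hif1a (chr12:73907617-73907866, plus strand), Slc16a1 (chr3:104638414-104638663, plus strand), a lactate carrier that fell, and Ldha (chr7:46845554-46845803, plus strand), which did not pass the test and has the most matches of these windows.
Adm: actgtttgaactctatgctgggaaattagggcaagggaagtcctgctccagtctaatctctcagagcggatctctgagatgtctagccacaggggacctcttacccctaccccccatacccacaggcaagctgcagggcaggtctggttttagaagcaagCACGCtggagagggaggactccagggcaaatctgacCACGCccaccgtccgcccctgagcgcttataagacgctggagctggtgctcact
Hif1a: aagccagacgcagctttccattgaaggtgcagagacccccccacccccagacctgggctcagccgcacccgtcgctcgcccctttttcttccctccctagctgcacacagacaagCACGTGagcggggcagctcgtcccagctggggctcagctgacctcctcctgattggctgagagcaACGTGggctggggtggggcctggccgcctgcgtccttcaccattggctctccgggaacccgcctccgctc
Slc16a1: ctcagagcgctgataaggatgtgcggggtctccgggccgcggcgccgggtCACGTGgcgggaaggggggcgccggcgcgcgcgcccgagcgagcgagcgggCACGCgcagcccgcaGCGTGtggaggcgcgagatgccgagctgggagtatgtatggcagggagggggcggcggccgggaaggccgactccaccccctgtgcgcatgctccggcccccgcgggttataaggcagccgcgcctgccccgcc
Ldha: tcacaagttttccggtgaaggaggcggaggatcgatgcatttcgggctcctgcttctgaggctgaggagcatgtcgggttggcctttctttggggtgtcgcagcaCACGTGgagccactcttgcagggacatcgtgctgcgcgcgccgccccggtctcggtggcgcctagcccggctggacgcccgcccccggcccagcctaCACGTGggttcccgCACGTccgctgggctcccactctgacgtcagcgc
The Adm window holds 2 core matches, that of Hif1a 3, that of Slc16a1 4 and that of Ldha 5. A window was found for 35 of the 39 genes, and 31 of these 35 (88.6%) had a core match in at least 1 window. The share was 41.5% among all 27025 genes with a window and 61.5% among the 9734 tested genes with one. Counted by window, the share was 74.5% for the 55 windows of listed genes and 55.2% for the windows of genes tested. Many of the listed genes were chosen as textbook HIF targets, and the reason for the difference was not tested. Among listed genes with a window, a match was present in 11 of 11 that rose, 2 of 3 that fell and 17 of 20 that did not pass the test. Ndrg1, Epas1, Slc2a3 and Slc2a4 are the listed genes with no window.

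Of the 37 genes tested, 17 (45.9%) passed an adjusted p-value of 0.05 (quasi-likelihood test of edgeR, adjusted over the whole table by the Benjamini-Hochberg method), beside 34.8% of all 13407 genes tested. D-gal raised 13 of them (16.9% of all genes tested were higher) and lowered 4 (17.8% were lower). Most of these changes were small. The study's thresholds ask in addition for a 2-fold change, a log2 fold change of 1 or more in size. They were met by 3 genes, beside 4.21% of all genes tested: Epas1 and Adm were higher (2.37% of all genes) and Ndrg1 was lower (1.83%). The median log2 fold change of the 37 genes was 0.07, against 0.0036 for all genes tested. The groups did not overlap in 21 of the 37, beside 49.1% of all genes tested.

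**Figure D1:**
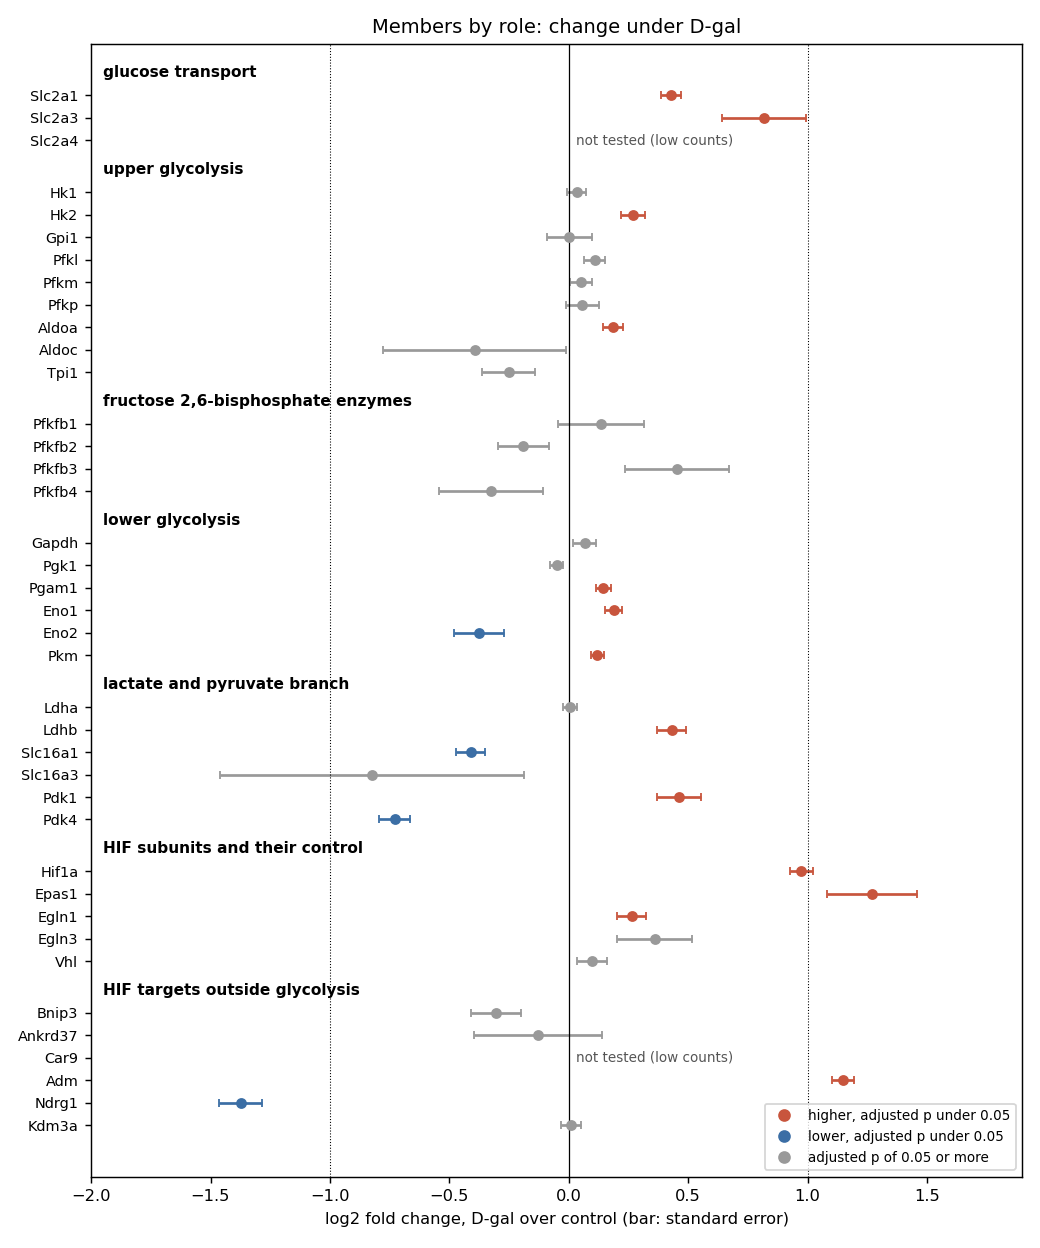
The log2 fold change (D-gal over control, horizontal axis) of each listed gene is grouped by role, with its standard error as a bar and dotted lines at a 2-fold change in either direction. Red points passed the adjusted p-value as higher, blue points as lower, and grey points did not pass; Ndrg1 (-1.37), Epas1 (1.27), Adm (1.15) and Hif1a (0.97) lie farthest from 0, while most enzymes lie within 0.5 log2 units.

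Both glucose transporter genes that could be tested rose, beside 16.9% of all genes tested. Slc2a1 encodes the glucose transporter GLUT1, which serves basal uptake in most cells, and per kilobase of exon it stood at 506 in control libraries, against 5.48 for Slc2a3. It had 1795, 1815 and 1713 normalized counts in control and 2339, 2495 and 2333 in D-gal libraries. The groups were well apart, with a log2 fold change of 0.43 ± 0.04 (SE, adjusted p = 0.000205). Slc2a3 encodes the high-affinity transporter GLUT3. It had 41.0, 40.8 and 37.4 normalized counts in control and 58.4, 79.7 and 72.3 in D-gal libraries, a rise of 0.82 ± 0.18 on the log2 scale (SE, adjusted p = 0.00859). On log2(FPKM + 1), which compresses low values, the difference was 0.19 (limma, adjusted p = 0.0214). Slc2a4, the insulin-responsive transporter GLUT4 of muscle and fat, had 0, 3 and 0 raw counts in control and 11, 14 and 4 in D-gal libraries. It did not pass the filter on low counts, and no fold is given for a group at the limit of detection.

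Of the 9 genes of upper glycolysis, which carry glucose to the triose phosphates, 2 rose and 7 did not pass the test. Thus 22.2% passed, beside 34.8% of all genes tested. Hexokinase was the first of these steps. Hk2, the inducible hexokinase, had 912, 999 and 983 normalized counts in control and 1171, 1136 and 1181 in D-gal libraries, a log2 fold change of 0.27 ± 0.05 (SE, adjusted p = 0.00491). Hk1, the constitutive form, had 3760, 3816 and 3612 in control and 3907, 3908 and 3633 in D-gal libraries, with a log2 fold change of 0.03 ± 0.04 (SE, adjusted p = 0.578) and groups that overlapped. The inducible form moved, while the constitutive form, which had more counts per kilobase of exon, did not pass. The aldolase of muscle and most other tissues, Aldoa, rose by 13.6% (log2 fold change 0.18 ± 0.04, SE, adjusted p = 0.0104).

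The 3 phosphofructokinase subunit genes, Pfkl, Pfkm and Pfkp, had log2 fold changes of 0.11, 0.05 and 0.06, each with an adjusted p of at least 0.0920. The isomerases did not pass either. Gpi1, which turns glucose phosphate into fructose phosphate, had a log2 fold change of 0.0024 ± 0.09 (SE), and Tpi1, which interconverts the triose phosphates, of -0.25 ± 0.11 (SE, adjusted p = 0.118). Without control replicate 1, Tpi1 passed with a log2 fold change of -0.38 (adjusted p = 0.00617). Aldoc, the aldolase of brain, was near the limit of detection with 9 to 24 raw counts per library. Its log2 fold change was -0.39 ± 0.38 (SE, adjusted p = 0.470), and -0.028 without control replicate 1.

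The Pfkfb genes encode the enzymes that make and remove fructose 2,6-bisphosphate, the activator of phosphofructokinase, and Pfkfb3 and Pfkfb4 are also HIF targets. None of the 4 passed the test, and none did at an unadjusted p under 0.05. DESeq2, run as an alternative, put Pfkfb3 past the threshold (adjusted p = 0.0446). Pfkfb3 had 254, 396 and 430 normalized counts in control and 549, 370 and 559 in D-gal libraries, so D-gal replicate 2 lay within the control range. Pfkfb4 had 176, 192 and 299 in control and 172, 150 and 210 in D-gal libraries. The spread within each group was large for both genes. The log2 fold changes of the family ran from -0.32 for Pfkfb4 to 0.45 for Pfkfb3. Single libraries weighed on both, and the value was -0.059 for Pfkfb4 without control replicate 3 and 0.25 for Pfkfb3 without control replicate 1.

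In lower glycolysis, where the energy yield is made, 3 of 6 genes rose and 1 fell, each by less than 1.5-fold. This was 66.7% of a small list, beside 34.8% of all genes tested. Pgam1 (phosphoglycerate mutase), Eno1 (the ubiquitous enolase) and Pkm (pyruvate kinase) had log2 fold changes of 0.15, 0.19 and 0.12 (adjusted p = 0.00993, 0.0051 and 0.0110). Eno1 had 4434, 4765 and 4525 normalized counts in control and 5176, 5164 and 5301 in D-gal libraries. Eno2, the enolase of neurons and a HIF target, went the other way with 249, 258 and 212 in control and 178, 184 and 193 in D-gal libraries (log2 fold change -0.38 ± 0.10, SE, adjusted p = 0.0254). The fall of Eno2 was the least stable of the calls: it was lost under 9 of 16 alternatives, among them DESeq2, with adjusted p-values up to 0.0857.

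Gapdh and Pgk1, the other enzymes of this stretch, did not pass. Gapdh, often used as a reference gene, had a log2 fold change of 0.07 ± 0.05 (SE, adjusted p = 0.343), and Pgk1, a standard hypoxia marker, of -0.05 ± 0.03 (SE, adjusted p = 0.173). The abundant glycolytic genes have many processed copies in the genome. The share of their 31-base words that also occur in other genes was 54.7% for Pgk1, 37.1% for Pgam1, 34.7% for Pkm, 28.5% for Eno1 and 28.1% for Gapdh, and how the counting treated reads that fit several genes is not stated. The counts deposited for such copies differed widely. The copy of Pgk1 in the table had 25 to 47 per library, whereas Eno1b, which shares most of its words with Eno1, had 1869 to 2685 beside 4399 to 5840 for Eno1. With the counts of such copies added, the log2 fold change of Eno1 was 0.15 (adjusted p = 0.00703).

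All 17 enzymes from hexokinase to lactate dehydrogenase together gave 6 rises and 1 fall, or 41.2% beside 34.8% of all genes tested. The log2 fold changes ran from -0.39 (the scarce Aldoc) to 0.43 (Ldhb), and none was called at the study's thresholds. Their summed counts made up 0.570%, 0.570% and 0.555% of the control libraries and 0.605%, 0.612% and 0.611% of the D-gal libraries. These genes together thus took 0.565% ± 0.00854 of counts in control and 0.609% ± 0.00362 in D-gal libraries (SD, n = 3). The groups did not overlap, which also held for 49.1% of all single genes tested. These shares use library totals without TMM factors. A few abundant genes dominate the sum, and Pkm alone gave 34804 of the 110883 counts in control replicate 1.

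**Figure D2:**
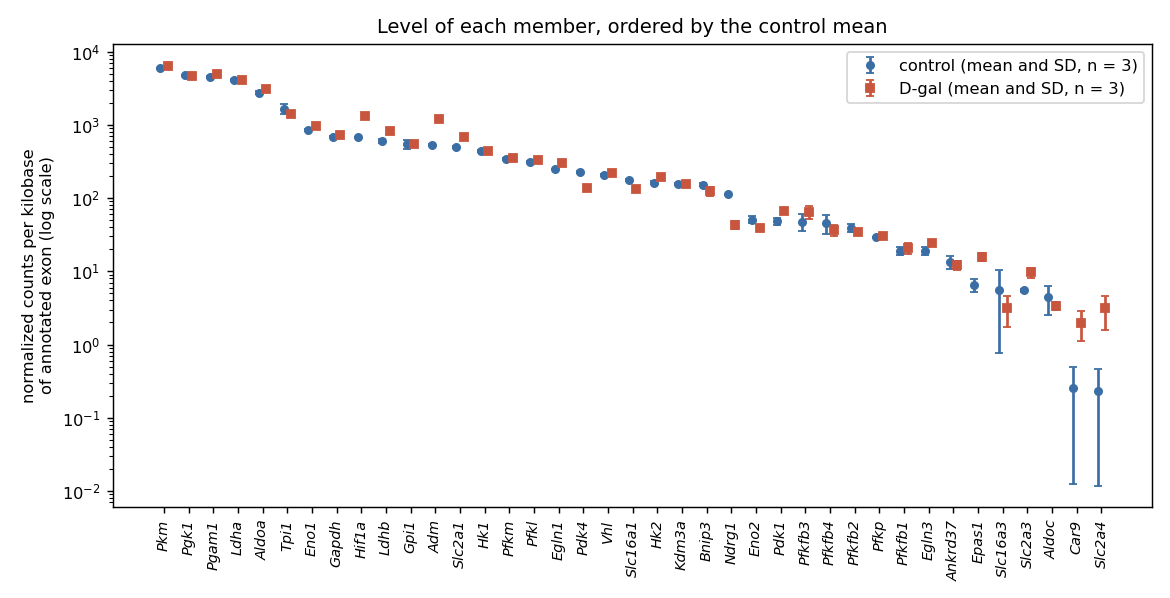
The level of each listed gene in control (circles) and D-gal libraries (squares) is shown as the mean and SD of normalized counts per kilobase of annotated exon (n = 3, log scale), ordered by the control mean. Pkm stands highest, at 5941 in control, and Slc2a4 and Car9 lowest, and Hif1a and Adm move up under D-gal to 1331 and 1191, which is below the 5 most abundant enzymes.

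Normalized counts per kilobase of exon allow only a rough comparison between genes. The length counts every annotated exon base, which can lower the value of a gene with many transcript forms. On this scale, Pkm stood first in control libraries at 5941 ± 135 (SD, n = 3), followed by Pgk1 (4787 ± 67.3), Pgam1 (4527 ± 127) and Ldha (4078 ± 133). The regulators of the pathway were far less abundant, with Hk2 at 162 ± 7.69 and Pfkfb3 at 47.6 ± 12.3. Hif1a stood at 678 ± 7.61 and the other alpha subunit gene Epas1 at 6.51 ± 1.26. Gapdh had a value close to that of Hif1a (687 ± 13.0), but equal abundance cannot be read from this. The count of Gapdh is uncertain through its copies, and its length of 4133 bases combines 13 annotated transcripts. Under D-gal, Hif1a reached 1331 ± 87.6 and Adm rose from 537 ± 20.9 to 1191 ± 33.7 on this scale.

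The genes around pyruvate and lactate moved in both directions, with 2 rises and 2 falls among 6 tested. In all, 66.7% passed, beside 34.8% of all genes tested. Pdk4 encodes the pyruvate dehydrogenase kinase induced by fasting and fatty acids (chromosome 6 of GRCm38, from 5483351 to 5496309, minus strand). It had 823, 777 and 824 normalized counts in control and 513, 450 and 499 in D-gal libraries. Every D-gal library lay well under every control library, and the level fell by 39.7% (log2 fold change -0.73 ± 0.07, SE, adjusted p = 0.000136). Pdk1, the kinase induced by HIF, went up, from 371, 344 and 421 in control to 503, 560 and 499 in D-gal libraries (log2 fold change 0.46 ± 0.09, SE, adjusted p = 0.00609).

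Lactate dehydrogenase is built from the products of Ldha, the form linked with lactate production and a HIF target, and Ldhb, the form of oxidative tissue. Ldha had 13113, 13981 and 13402 normalized counts in control and 13566, 13612 and 13498 in D-gal libraries. The D-gal values lay inside the control range, with a log2 fold change of 0.0063 ± 0.03 (SE, adjusted p = 0.896). Ldhb had 915, 911 and 1024 in control and 1305, 1227 and 1309 in D-gal libraries, a rise of 34.9% (log2 fold change 0.43 ± 0.06, SE, adjusted p = 0.00108). The rise was in the less abundant subunit, and 33.0% of the words of Ldhb are shared with other genes.

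Slc16a1 encodes the lactate carrier MCT1. It fell by 24.8%, from 765, 799 and 760 normalized counts in control to 618, 548 and 582 in D-gal libraries (log2 fold change -0.41 ± 0.06, SE, adjusted p = 0.00159). Slc16a3, the HIF-induced lactate exporter MCT4, had only 8 to 67 raw counts per library. Its normalized counts were 58.4, 18.8 and 11.1 in control and 9.0, 17.5 and 24.1 in D-gal libraries, and the high value belonged to the control library with the raised macrophage and leukocyte markers. Its log2 fold change was -0.82 ± 0.64 (SE, adjusted p = 0.358) and turned to 0.14 without that library. The part of those markers in this value was not tested.

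Of the 5 genes for the alpha subunits and their oxygen-dependent control, 3 rose and none fell. Over all genes tested, 16.9% rose and 17.8% fell, and a list of 5 genes is small. The rises of Hif1a and Epas1 were among the largest changes of the listed genes. Hif1a (chromosome 12 of GRCm38, from 73901375 to 73947530, plus strand) had 4559, 4864 and 4009 raw counts in control and 6484, 7588 and 6617 in D-gal libraries. After normalization these were 3973, 3969 and 4049 against 7277, 8286 and 7973. The control libraries were nearly level and the D-gal libraries about 1.96-fold higher, with a log2 fold change of 0.97 ± 0.05 (SE, adjusted p = 9.03e-06), just under the study's fold threshold. Scaling by library totals alone, limma with the smaller pseudocount of 0.1 and leaving out D-gal replicate 1 each put it over that threshold. Annotated exons of Hif1a overlap Gm49321 on the same strand and Gm15283 on the opposite strand, and reads of these genes cannot be told apart here.

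Epas1 (chromosome 17, from 86753907 to 86833410, plus strand), the alpha subunit gene best known from endothelium, was lowly expressed. Its raw counts were 51, 41 and 31 in control and 70, 80 and 82 in D-gal libraries. The normalized counts were 44.4, 33.5 and 31.3 in control and 78.6, 87.4 and 98.8 in D-gal libraries, without overlap. This was a rise of 1.27 ± 0.19 on the log2 scale, or 2.41-fold (SE, adjusted p = 0.00144). On log2(FPKM + 1), the difference was 0.51. Of the 3 endothelial markers tested, none was higher at the adjusted p-value, Tek was lower (log2 fold change -1.02, adjusted p = 0.0342), and Kdr and Pecam1 did not pass (-0.69 and 0.07).

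Of the genes that restrain HIF, Egln1 rose, and Egln3 and Vhl did not pass. Egln1, the main prolyl hydroxylase, had 900, 896 and 913 normalized counts in control and 1157, 1092 and 1003 in D-gal libraries (log2 fold change 0.26 ± 0.06, SE, adjusted p = 0.0109). Egln3, the hydroxylase gene that HIF itself induces, had 57.5, 47.3 and 46.5 against 66.2, 64.4 and 63.9. These groups did not overlap, but the difference of 0.36 ± 0.16 on the log2 scale did not pass (SE, adjusted p = 0.113). Vhl, whose product leads the hydroxylated subunit to degradation, had a log2 fold change of 0.10 ± 0.06 (SE, adjusted p = 0.272).

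**Figure D3:**
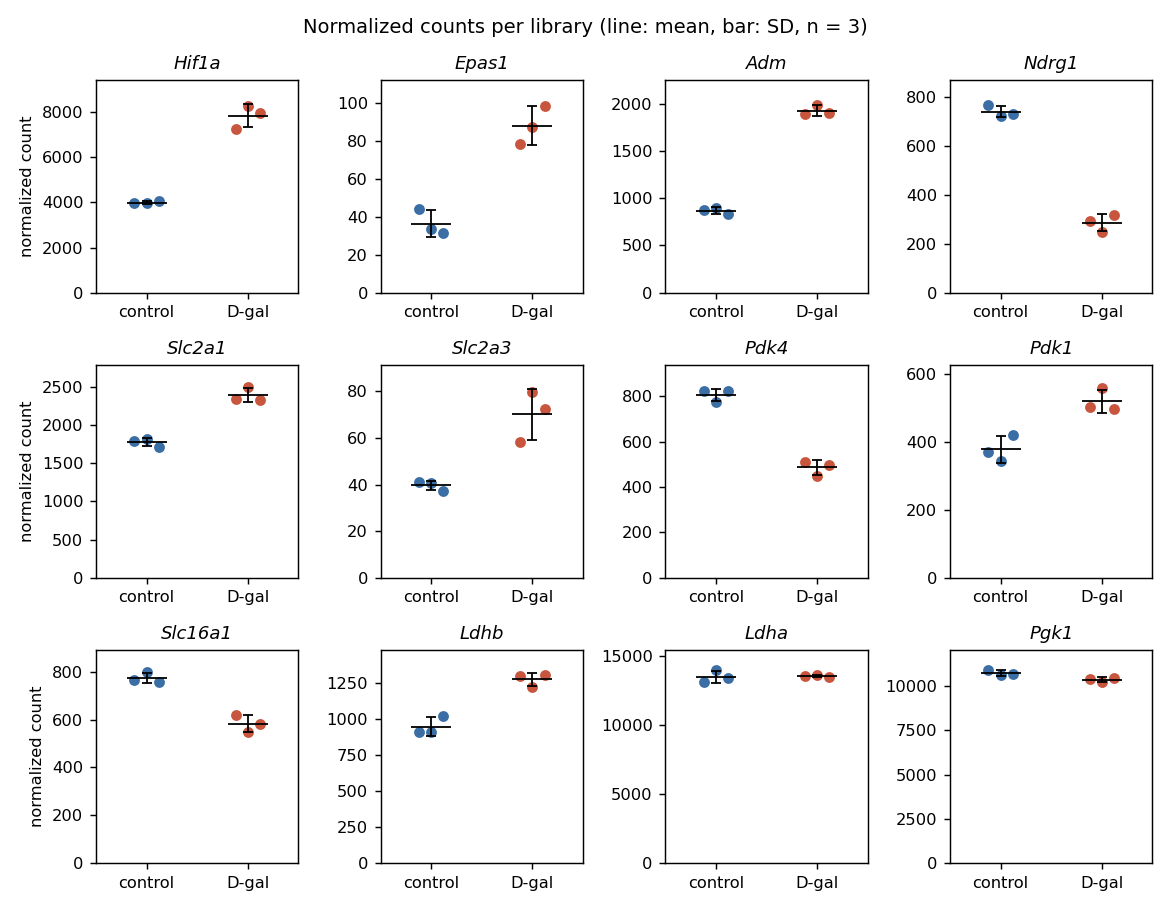
Normalized counts of 12 listed genes are plotted for each control (blue) and D-gal library (red), with the mean as a line and the SD as a bar (n = 3); each vertical axis starts at 0. The groups are apart in every panel except that of Ldha, with the widest gaps for Hif1a, Epas1, Adm and Ndrg1.

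The HIF targets outside glycolysis did not move together: of the 5 tested, 1 rose, 1 fell and 3 did not pass. For comparison, 16.9% of all genes tested rose and 17.8% fell, and 5 genes are too few to tell this list from that background. Adm (chromosome 7, from 110627661 to 110629820, plus strand) encodes adrenomedullin, a vasodilator peptide and one of the most sensitive hypoxia genes. It had 1008, 1099 and 823 raw counts in control and 1690, 1824 and 1575 in D-gal libraries, which came to 878, 897 and 831 against 1897, 1992 and 1898 after normalization. The difference was 2.22-fold, or 1.15 ± 0.05 on the log2 scale (SE, adjusted p = 3.92e-06), and the replicates of each group lay close together. Its promoter window holds 2 core matches, and whether HIF binds there was not tested.

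Ndrg1 (chromosome 15, from 66929321 to 66969640, minus strand) encodes a differentiation and stress protein that is commonly used as a hypoxia marker, and it went the opposite way. It had 879, 887 and 723 raw counts in control and 260, 228 and 263 in D-gal libraries. The normalized counts were 766, 724 and 730 in control and 292, 249 and 317 in D-gal libraries. Its level fell by 61.4%, the largest change in size among the 37 listed genes tested (log2 fold change -1.37 ± 0.09, SE, adjusted p = 2.99e-05). It was also the single listed gene called by glmTreat, a stricter edgeR test of whether the change exceeds a log2 fold change of 1. Gm17035 and Gm2895 overlap its exons on the opposite strand, and whether counting used the strand is not stated.

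The remaining targets gave no call. Bnip3, which drives the removal of mitochondria in hypoxia, had 355, 332 and 354 normalized counts in control and 266, 252 and 325 in D-gal libraries (log2 fold change -0.30 ± 0.11, SE, adjusted p = 0.0568). Its groups did not overlap, and 57.0% of its words are shared with other genes. Kdm3a, a histone demethylase induced by HIF, had 1264 to 1328 in control and 1277 to 1318 in D-gal libraries (log2 fold change 0.0099 ± 0.04, SE). Ankrd37, with 14 to 25 raw counts per library, had a log2 fold change of -0.13 ± 0.27 (SE). Car9, the carbonic anhydrase that is close to silent in most cells with enough oxygen, had 2, 0 and 0 raw counts in control and 2, 5 and 5 in D-gal libraries and was not tested.

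Because related enzymes can replace each other, the log2 ratio of 2 paralogs within the same library was compared for 13 pairs, with 0.5 added to each count. Such a ratio does not depend on how libraries are scaled. The widest shift without overlap was in the pyruvate dehydrogenase kinases. The log2 ratio of Pdk4 to Pdk1 was 1.15, 1.18 and 0.97 in control and 0.029, -0.32 and 0.00 in D-gal libraries. Per kilobase of exon, Pdk4 made up 83.1%, 83.4% and 81.2% of the sum of both in control and 69.3%, 64.0% and 68.9% in D-gal libraries. Pdk4 thus lost ground to Pdk1 in every D-gal library while still being the larger of the pair on this scale.

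Groups were also apart, without overlap, for Pfkfb4 to Pfkfb3 (change of -0.76 in the log2 ratio), Eno2 to Eno1 (-0.56), Ldhb to Ldha (0.43), Slc2a3 to Slc2a1 (0.38) and Hk2 to Hk1 (0.24). In all, 6 of 13 pairs were apart and 7 overlapped. Groups were also apart for 49.1% of all single genes tested, and the share among other pairs of genes was not tested. With 3 libraries against 3, the two-sided exact permutation test cannot give a p under 0.1, which each of the 6 pairs reached, and the value adjusted over the 13 pairs was 0.217. The ratio of Epas1 to Hif1a changed by 0.31 with groups that overlapped (exact permutation p = 0.3), so the rise of either alpha subunit gene was not told apart from that of the other. The 2 phosphofructokinase pairs changed by -0.05 and -0.06, again with overlap.

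**Figure D4:**
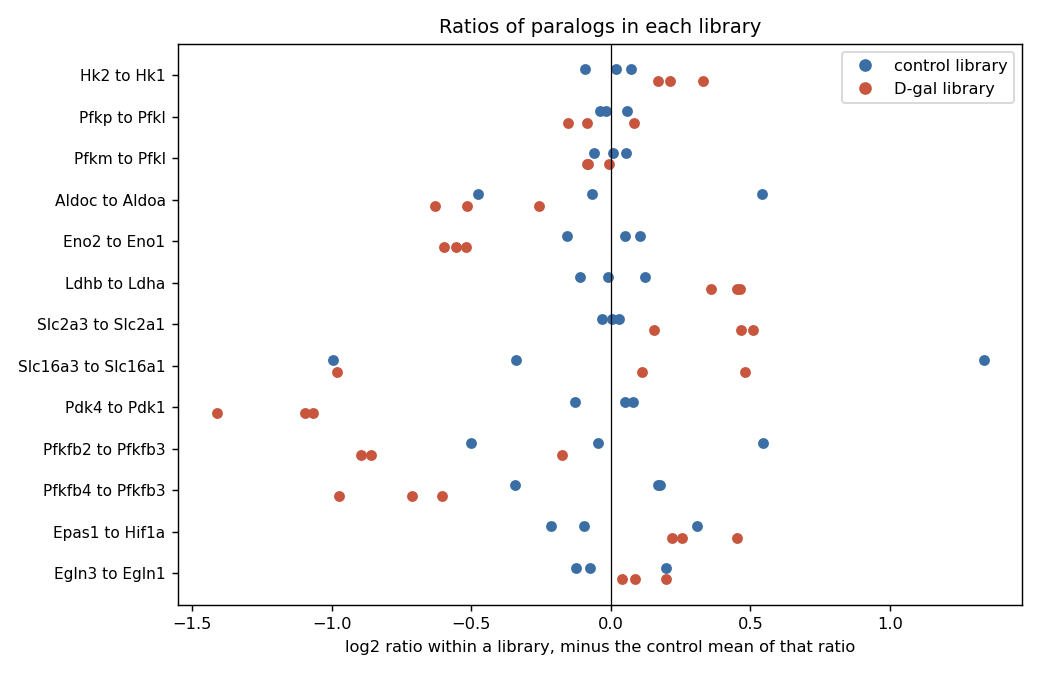
For each of the 13 pairs of paralogs, the log2 ratio in every control library (blue) and D-gal library (red) is shown minus the control mean of that ratio. The red points of Pdk4 to Pdk1 lie farthest to the left without touching the blue ones, and those of Ldhb to Ldha and Hk2 to Hk1 lie to the right.

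Wider lists of the same pathways were counted in the same fit, in which 16.9% of all genes tested rose and 17.8% fell. Of 12 tested genes among other enzymes of glycolysis and hexose metabolism, 5 rose and 1 fell. Bpgm, which makes bisphosphoglycerate from a glycolytic intermediate and is best known from red cells, rose from 577, 611 and 620 to 1525, 1586 and 1536 normalized counts. With a log2 fold change of 1.36 ± 0.05 (SE, adjusted p = 2.24e-06) it exceeded every listed enzyme of glycolysis. Galm, the mutarotase that converts galactose to the form taken up by galactokinase, rose by 0.69 ± 0.08 on the log2 scale (SE, adjusted p = 0.000451), and Eno3, the enolase of muscle, by 0.47 ± 0.10 (SE, adjusted p = 0.0094).

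Among 9 tested genes of other hexose transporters and glucose sensing, 2 rose and none fell. Slc2a13, a carrier of myo-inositol, had 40.1, 27.7 and 41.4 normalized counts in control and 61.7, 79.7 and 77.1 in D-gal libraries (log2 fold change 1.01 ± 0.21, SE, adjusted p = 0.00715). Arrdc4, which responds to glucose phosphates through the sensor MondoA, rose by 0.38 ± 0.06 on the log2 scale (SE, adjusted p = 0.00195). Txnip, which responds to the same sensor and was looked up after the values were seen, had a log2 fold change of -0.16 ± 0.17 (SE, adjusted p = 0.513). Of 18 tested genes for the entry of pyruvate into mitochondria and other carriers, 4 rose and 2 fell. Pcx, pyruvate carboxylase, rose by 0.96 ± 0.06 on the log2 scale (SE, adjusted p = 2.75e-05), with 672, 712 and 645 normalized counts in control and 1238, 1387 and 1322 in D-gal libraries. Dlat, a core subunit of pyruvate dehydrogenase, rose by 0.23, and Emb, an accessory chain of lactate carriers, fell by 0.27 on the same scale.

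Of 40 tested genes of the HIF pathway and hypoxia response beyond the listed ones, 12 rose and 8 fell, and the median log2 fold change was -0.02. Stc2, the secreted glycoprotein stanniocalcin, was called higher, with 160, 161 and 158 normalized counts in control and 364, 382 and 399 in D-gal libraries (log2 fold change 1.26 ± 0.08, SE, adjusted p = 2.45e-05). Bhlhe40, a transcriptional repressor induced by hypoxia and the clock, was called lower, with 464, 479 and 436 in control and 216, 159 and 180 in D-gal libraries (log2 fold change -1.31 ± 0.11, SE, adjusted p = 0.000106). Lox, the collagen crosslinking enzyme, had between 45377 and 46741 normalized counts in control and between 23033 and 26798 in D-gal libraries, and fell by 46.3% (adjusted p = 1.51e-05). Cited2, which competes with HIF for its coactivator, rose by 53.4% (adjusted p = 1.52e-05). Vegfa, the vascular growth factor and best known HIF target, was looked up after the values were seen, outside the rule for naming genes, and fell by 14.6% (adjusted p = 0.0386). Known HIF targets therefore stood on both sides. At both of the study's thresholds, Adm and Stc2 were higher, and Ndrg1 and Bhlhe40 were lower. These are named examples and not a tally. By count, 12 rose and 8 fell in this list, and 13 rose and 4 fell among the listed genes.

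**Figure D5:**
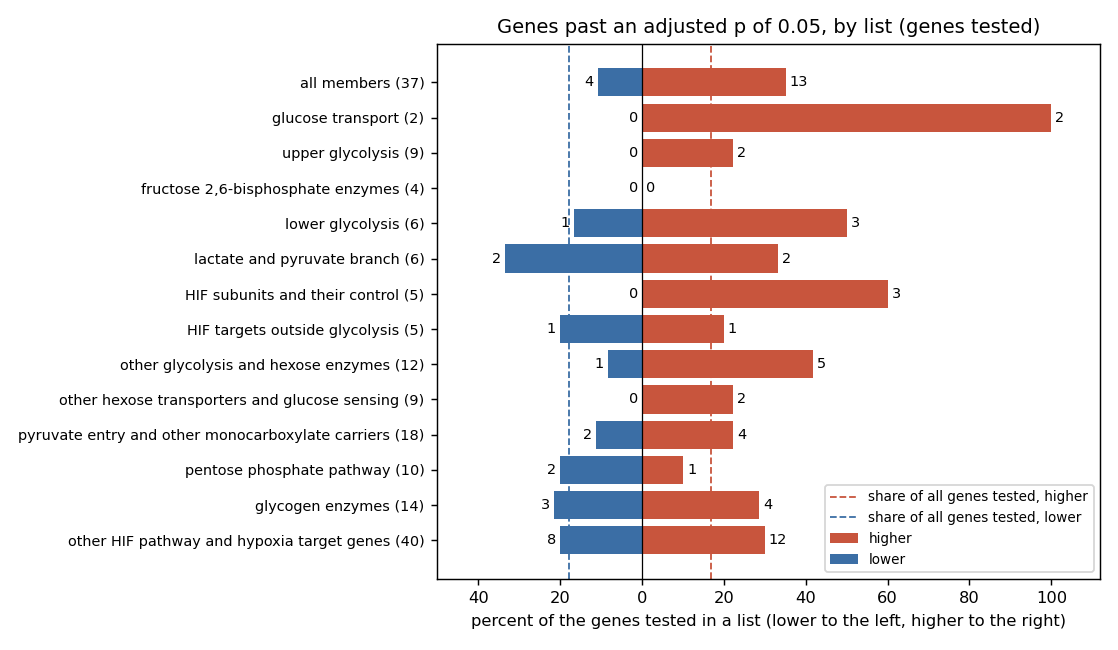
Bars give, for each list, the percent of its tested genes that passed the adjusted p-value of 0.05 as lower (blue, to the left) or higher (red, to the right), with the number of genes at the bar's end and the number tested in brackets. Dashed lines mark the share of all genes tested, 16.9% higher and 17.8% lower; the small lists rest on 2 to 9 genes.

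Over all the wider lists, 103 of 131 genes were tested, 28 rose and 16 fell, which is 42.7% beside the 34.8% of all genes tested. The study's thresholds were met by 4 that rose and 1 that fell.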

How the data were processed

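RNA-seq of 6 libraries of NOR-10 cells was analysed, 3 control and 3 D-gal, grouped by the sample labels. For each gene, the deposited table gives every library's count, left unnormalized by the authors, and its FPKM, which the authors scaled by gene length and library total. According to the study's methods, reads were checked with FastQC and trimmed with Trimmomatic, and the submitters' processing notes name HISAT2 (version 2.0.4). The counting tool, the annotation and the use of strand are not given in the sources used here. The library type was taken from the labels, which name an RNA-seq kit, because the kit in the methods is one for small RNA. The sources do not say whether replicates were separate cultures, so p-values measure the spread between these libraries, which may be technical. Replicates differed by more than sampling noise (chi-square divided by its degrees of freedom, 6.00 to 9.42).

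All genes were fitted in edgeR (version 4.0.16, R 4.3.3) with TMM normalization, filterByExpr, the quasi-likelihood test and Benjamini-Hochberg adjustment over the 13407 genes tested. The thresholds, an adjusted p-value of 0.05 and a log2 fold change of 1, are those of the study's methods. A normalized count is the count divided by the TMM-scaled library size relative to its mean. The standard error of a log2 fold change is its size over the square root of F. The biological coefficient of variation was 9.47%. Exon lengths, overlaps and words of 31 bases shared with other genes came from GENCODE M21 (GRCm38), and promoter windows from RefSeq (GRCm38.p6). All 6 values are given for genes past the adjusted p-value that changed by 0.5 or more on the log2 scale and for the ends of compared families. Of the wider lists, the genes called at both thresholds and up to 3 of smallest p are named. The listed genes, the wider lists and the markers were chosen with earlier results of these data known. The functions were tested on simulated data.

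Alternatives were DESeq2 (version 1.42.0), RLE factors, library totals alone, no filter, a minimum of 10 counts per library, a replicate block, leaving out each replicate, limma (version 3.58.1) on log2(FPKM + 1) and log2(FPKM + 0.1), counts thinned to the smallest total, counts of contained copies added, an adjusted p-value under 0.01 and glmTreat, and for the ratios 5 added to each count.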

Additional observations from a re-analysis of the deposited data

How the results depend on the processing

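Of the 17 genes that passed, 16 also had an adjusted p-value under 0.05 in all 16 refits other than glmTreat, and none changed sign. The exception was Eno2. With glmTreat only Ndrg1 passed. At the stricter adjusted p-value of 0.01 in the main fit, Aldoa, Egln1, Pkm and Eno2 did not pass (edgeR adjusted p = 0.0104, 0.0109, 0.0110 and 0.0254). Of the 20 that did not pass, 5 passed under at least 1 alternative, Pfkl, Tpi1, Pfkfb3, Egln3 and Bnip3. The number of listed genes called at both thresholds was 3, and 1 (Ndrg1) with glmTreat; it was 3 to 4 when single replicates were left out, the added gene being Hif1a without D-gal replicate 1 and Slc2a4 without control replicate 2 or D-gal replicate 3. Slc2a4 was also called with no filter on low counts (adjusted p = 0.0221). On log2(FPKM + 1), Epas1 was no longer called. The numbers of genes higher and lower at the adjusted p-value alone kept within 1.5 times 13 and 4. Changes of sign occurred only in genes that did not pass, Gpi1, Ldha, Slc16a3, Ankrd37 and Kdm3a. With no filter, the log2 fold change was -0.0067 for Gpi1 and -0.0028 for Ldha; with contained copies added it was -0.0030 for Gpi1; with thinned counts it was 0.031 for Ankrd37. Leaving out single replicates gave -0.065 to 0.12 for Gpi1, -0.015 to 0.033 for Ldha, -1.19 to 0.14 for Slc16a3, -0.22 to 0.036 for Ankrd37 and -0.0040 to 0.034 for Kdm3a. The cause was not tested. Same-numbered libraries of the groups correlated by 0.017, 0.0086 and 0.035 over 11344 genes, so the numbers were not treated as pairing, although every library correlated best with its own number. With the replicate block, 3 genes were called, 13 were higher and 3 lower. No difference between the groups in a paralog ratio moved by more than the spread between replicates. Depth limits Slc2a4, Car9, Aldoc and Ankrd37 most, with at most 25 counts in any library.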

Other observations

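Of 10 tested genes of the pentose phosphate pathway, which makes NADPH and ribose, 1 rose and 2 fell. This was 30.0%, beside 34.8% of all genes tested. Tkt, transketolase, fell from 5543, 5776 and 5744 normalized counts in control to 4627, 4511 and 4901 in D-gal libraries (log2 fold change -0.28 ± 0.04, SE, edgeR adjusted p = 0.00108). Pgd, phosphogluconate dehydrogenase, fell by 11.7% (edgeR adjusted p = 0.00437). Tktl1, a relative of Tkt, rose by 1.29 ± 0.38 on the log2 scale (SE, edgeR adjusted p = 0.0332), on only 5 to 15 raw counts per library.

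Of 14 tested genes of glycogen storage, 4 rose and 3 fell. The glycogen-targeting subunits of protein phosphatase went opposite ways. Ppp1r3b had 126, 108 and 93.9 normalized counts in control and 182, 187 and 231 in D-gal libraries (log2 fold change 0.86 ± 0.15, SE, edgeR adjusted p = 0.00308), whereas Ppp1r3c had 938, 900 and 936 against 674, 714 and 728 (log2 fold change -0.39 ± 0.05, SE, edgeR adjusted p = 0.000932). Ugp2, which makes UDP-glucose and thereby serves both glycogen synthesis and the use of galactose, rose by 29.0% (edgeR adjusted p = 0.00178).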
